A study of Mus musculus with 6 samples.

Results

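The receptors through which blood-forming growth factors act on cells were followed as 9 genes, out of 51912 genes listed in the count files: Kit, Flt3, Csf1r, Epor, Csf3r, Csf2ra, Csf2rb, Csf2rb2 and Il3ra. They were chosen by name, each was found once, and all 9 passed the filter on low counts. RNA came from the aorta-gonad-mesonephros (AGM), the embryonic region around the dorsal aorta where haematopoietic stem cells arise, of mouse embryos at day E10.5. Embryos of both groups were MacGreen mice, whose EGFP reporter is under control of the Csf1r promoter, and only green cells were sorted. CD206pos are GFP+CD206+ cells, which carry the mannose receptor CD206 on their surface, and CD206neg are GFP+CD206- cells, which do not. Each group has 3 libraries, 1 from each of 3 litters, and each library pooled 3 to 5 AGM. The labels name no agent given to the animals, and no sex.

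Growth factor receptors of blood cells fall into classes by how they signal. Kit, Flt3 and Csf1r are receptor tyrosine kinases, bound by stem cell factor, by FLT3 ligand, and by CSF1 or IL-34. Epor and Csf3r are cytokine receptors without a kinase of their own that pair with themselves and signal through JAK2 and STAT proteins, Epor for erythropoietin and Csf3r for the granulocyte factor G-CSF. Csf2ra and Il3ra encode the alpha chains that give specificity for GM-CSF and interleukin 3, and Csf2rb encodes the common beta chain that carries the signal. Csf2rb2 encodes a second beta chain, present in mice, that serves interleukin 3. In the embryo Kit and Flt3 are known from stem and progenitor cells, and Csf1r from the macrophage lineage.

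Sequences around the start sites of the receptor genes are shown for the receptor genes with the largest fold differences between the groups, Kit, Flt3 and Epor (of which Epor did not pass the test), and for the GM-CSF alpha chain Csf2ra. They are RefSeq promoters of build GRCm38.p6, 250 bases before to 50 bases after the start, and 7 of the 9 genes could be shown from that table. Capitals mark letters of GAGGAA, a core bound by PU.1 and other ETS factors, of AGATAA or TGATAA, bound by GATA factors, and of TGTGGT, bound by RUNX factors, on either strand. The Kit window is chr5:75574737-75575036 (plus strand), the Flt3 window chr5:147400440-147400739 (minus strand), the Epor window chr9:21963527-21963826 (minus strand) and the Csf2ra window chr19:61228369-61228668 (minus strand).
Kit: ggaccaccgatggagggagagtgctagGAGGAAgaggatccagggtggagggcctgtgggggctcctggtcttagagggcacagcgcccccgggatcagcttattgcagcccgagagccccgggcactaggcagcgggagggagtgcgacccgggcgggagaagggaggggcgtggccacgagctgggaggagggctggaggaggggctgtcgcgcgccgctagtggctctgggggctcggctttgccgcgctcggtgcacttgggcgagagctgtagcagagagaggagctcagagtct
Flt3: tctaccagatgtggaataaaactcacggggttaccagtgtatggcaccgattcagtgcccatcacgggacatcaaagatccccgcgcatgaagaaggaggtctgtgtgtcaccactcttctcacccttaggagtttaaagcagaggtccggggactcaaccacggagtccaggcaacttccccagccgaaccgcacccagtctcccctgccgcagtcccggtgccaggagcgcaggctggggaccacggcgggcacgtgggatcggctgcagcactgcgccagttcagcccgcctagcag
Epor: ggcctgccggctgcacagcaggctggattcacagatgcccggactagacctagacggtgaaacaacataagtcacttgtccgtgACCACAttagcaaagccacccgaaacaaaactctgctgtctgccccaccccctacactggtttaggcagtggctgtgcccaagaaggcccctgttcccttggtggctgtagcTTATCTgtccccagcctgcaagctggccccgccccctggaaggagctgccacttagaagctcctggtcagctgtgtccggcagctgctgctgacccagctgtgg
Csf2ra: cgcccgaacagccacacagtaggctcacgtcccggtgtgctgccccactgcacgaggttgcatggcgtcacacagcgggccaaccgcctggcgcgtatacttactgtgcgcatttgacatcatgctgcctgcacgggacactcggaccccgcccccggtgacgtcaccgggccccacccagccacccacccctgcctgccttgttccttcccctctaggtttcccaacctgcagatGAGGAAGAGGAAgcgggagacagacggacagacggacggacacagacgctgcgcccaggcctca

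Kit had 1 GAGGAA, at position -223 from the start, and neither of the other motifs. Flt3 had none of the 3 motifs. Epor had 1 GATA motif at position -54 and 1 RUNX motif at position -166, with no GAGGAA. Csf2ra had 2 adjoining GAGGAA, at positions -14 and -8. Of the members not printed, Csf3r had 1 GAGGAA at position -86, Csf2rb2 had 2 and a GATA motif, and Il3ra had none of the 3 motifs. GAGGAA stood in 28.3% of the promoters of 27025 genes in that table, a GATA motif in 19.0% and TGTGGT in 16.9%. These matches describe letters in a window and were not tested for binding.

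Between 16730846 and 18214283 reads per library were assigned to genes, and 3 reads stand for 0.165 to 0.179 CPM, the usual depth-scaled unit. The sorted antigen checked the labels: Mrc1, which encodes CD206, was at 1585 ± 181 CPM in CD206pos and 93.9 ± 36.8 CPM in CD206neg (SD, n = 3 each). All 10 macrophage markers examined had reads in both populations, and their summed level was 8129 to 10385 CPM in CD206pos and 2999 to 3891 CPM in CD206neg. CPM values are scaled by TMM, a correction for library composition, and log2 fold changes are CD206pos over CD206neg. The p-values come from edgeR's quasi-likelihood test and are adjusted by the Benjamini-Hochberg method over all 12668 genes tested. Of these genes 4.87% passed an adjusted p of 0.05, 2.97% higher and 1.9% lower in CD206pos.

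The question asked of the receptors was which of them differ between CD206pos and CD206neg cells of the same region. Of 9 receptor genes tested, 2 fell in CD206pos, Kit and Flt3, 0 rose and 7 did not pass. The median log2 fold change of the 9 was -0.32, against -0.0043 over all genes tested. At an unadjusted p under 0.05 stood 2 positive members (Csf1r, Epor) and 3 negative ones (Kit, Flt3, Csf3r). DESeq2 called 1 member higher and 3 lower, and limma-voom called 0 higher and 2 lower. Libraries of the groups did not overlap for Kit, Flt3, Epor and Csf3r, which is 4 of 9, where 24.6% of all tested genes had groups that did not overlap.

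**Figure D1:**
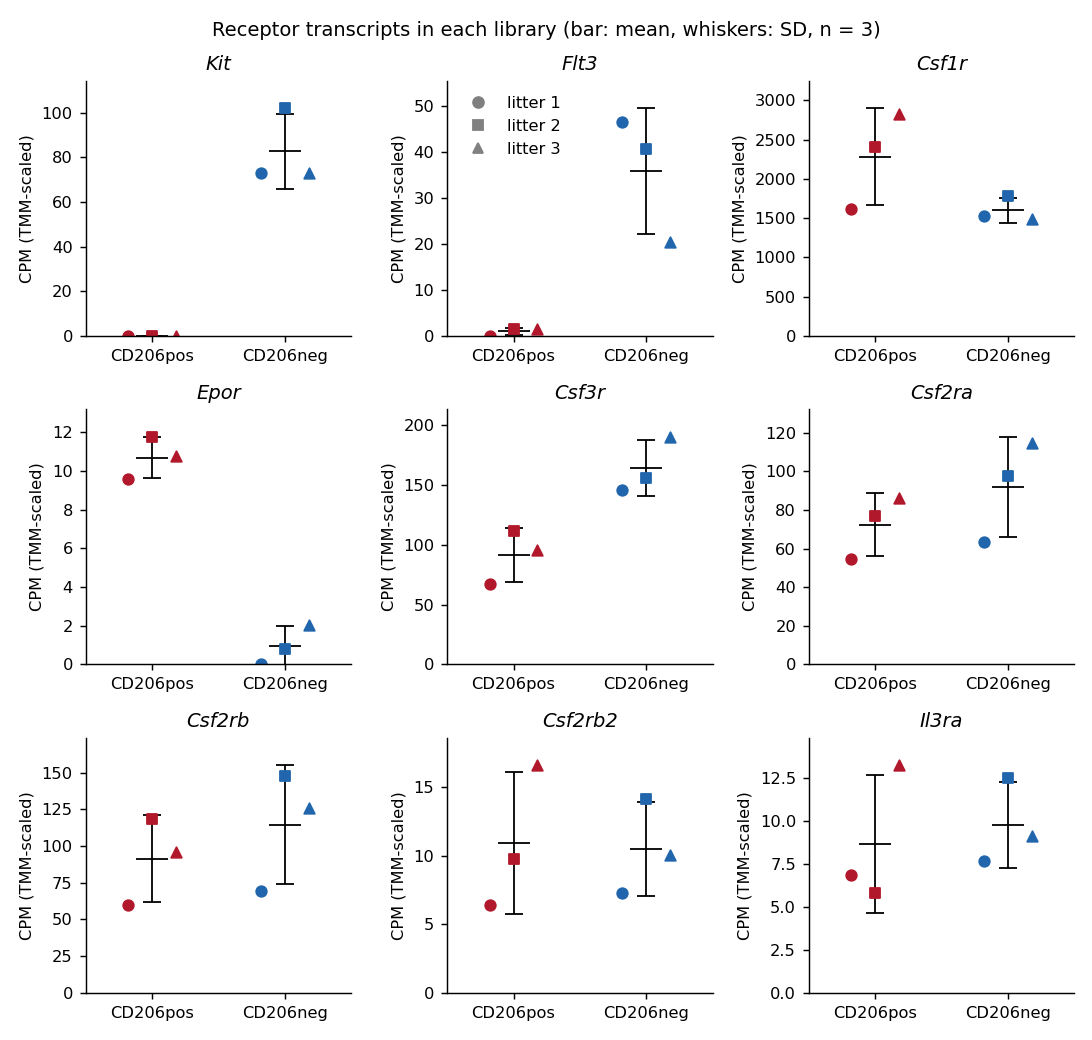
Level of each receptor transcript in each library, in CPM scaled by TMM on a linear axis from 0, with CD206pos left and CD206neg right; symbols are litters, the horizontal bar is the mean and whiskers are the SD of 3 libraries. Kit has no read in CD206pos, Flt3 and Csf3r lie lower and Epor higher in every CD206pos library than in any CD206neg library, and the groups overlap for the other 5 genes.

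Kit, the receptor of stem cell factor that marks haematopoietic stem and progenitor cells and mast cells, was read in one population alone (ENSMUSG00000005672.12, GRCm38 chromosome 5, 75574916 to 75656722, plus strand). It had 0 reads in each of the 3 CD206pos libraries, against 1344, 1761 and 1295 reads in the CD206neg libraries of litters 1, 2 and 3. In CPM the CD206neg libraries stood at 73.2, 102 and 73.0, a mean of 82.7 ± 16.7 (SD, n = 3). Against a limit of 3 reads over the CD206pos group, Kit was at least 1409-fold lower in CD206pos, a bound that covers counting error only (edgeR adjusted p = 0.000421). The call held under each of 20 alternatives, with adjusted p between 7.51e-24 and 0.0257, the largest without litter 2. None of the exon bases of Kit overlapped another gene, and none of its 50-base words occurred in transcripts of another gene. In bulk RNA of sorted cells, fewer cells of a type and less RNA per cell cannot be told apart.

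Flt3, the tyrosine kinase receptor of multipotent and lymphomyeloid progenitors, fell with Kit but was not wholly unread in CD206pos (ENSMUSG00000042817.15, chromosome 5, 147330741 to 147400489, minus strand). It had 0, 26 and 25 reads in the CD206pos libraries of litters 1, 2 and 3, against 855, 701 and 364 reads in the CD206neg libraries. These are 0, 1.49 and 1.45 CPM in CD206pos and 46.6, 40.6 and 20.5 CPM in CD206neg. Every CD206pos library was thus under every CD206neg library, and within CD206neg litter 3 was lowest. The mean was 36.7-fold lower in CD206pos, with a log2 fold change of -5.18 ± 0.87 (SE, edgeR adjusted p = 0.0133). The 0 in 1 CD206pos library is of a common kind: among 1258 genes averaging 10 to 20 reads in CD206pos, 53.6% had 0 reads in at least 1 library. The Flt3 call was lost without CD206pos replicate 2, CD206neg replicate 1 or CD206neg replicate 2 (adjusted p = 0.0656, 0.0680 and 0.0866), without litter 2 or 3 (adjusted p = 0.214 and 0.0709) and with limma-voom (adjusted p = 0.0515). The log2 fold change of Flt3 was -4.37 without litter 1 and -5.86 without litter 3.

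Markers of other cell types were examined beside Kit and Flt3, and the lists did not all lie lower in CD206pos. Of 10 stem and progenitor markers 9 were tested, 5 fell and 0 rose, with a summed level of 69.7 to 105 CPM in CD206pos and 799 to 1270.5 CPM in CD206neg. Of 10 granulocyte precursor markers all 6 tested fell, with a sum of 17.4 to 69.7 CPM in CD206pos and 1861 to 2855 CPM in CD206neg, while limma-voom called 2 of them lower. The 8 megakaryocyte markers summed to 2.32 to 9.97 CPM in CD206pos and 59.2 to 85.6 CPM in CD206neg, with 1 of 4 tested called lower. The 8 mast cell and basophil markers summed to 0 to 0.630 CPM in CD206pos and 29.8 to 77.6 CPM in CD206neg, and both tested genes, Cpa3 and Hdc, fell, of which limma-voom called 1. The mast cell protease genes Mcpt4, Cma1 and Tpsb2 had 0 reads in every library. Tested or not, 6 of the 10 granulocyte precursor markers and 7 of the 8 mast cell and basophil markers had 0 reads in CD206pos. A gene unread in CD206pos passes the filter only through its CD206neg reads, so its direction was fixed before the test. Primordial germ cells, which also carry Kit and lie in the urogenital region, were looked for with 8 markers, whose sum was 2.06 to 7.46 CPM in CD206pos and 3.82 to 6.03 CPM in CD206neg, with 0 of 3 tested genes called by edgeR, DESeq2 or limma-voom and 0 at an unadjusted p under 0.05. Of 6 monocyte markers 5 were tested, 1 rose and 3 fell, with a sum of 1618 to 2519 CPM in CD206pos and 743 to 1249 CPM in CD206neg. The 7 mesenchymal markers summed to 2.23 to 61.4 CPM in CD206pos and 8.88 to 81.0 CPM in CD206neg, highest in litter 3 of each group. The part of these cell types in the Kit and Flt3 difference was not tested.

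**Figure D2:**
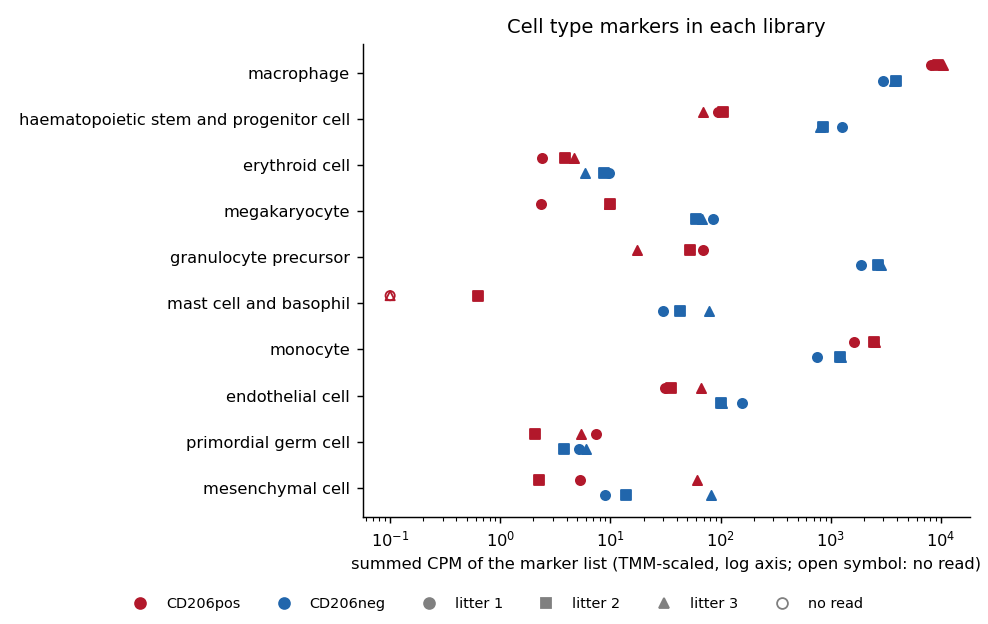
Summed level of each list of cell type markers in each library, in CPM scaled by TMM on a log axis, CD206pos (red) above CD206neg (blue) in each row; symbols are litters and open symbols have no read. Summed lists of progenitor, granulocyte precursor, megakaryocyte and mast cell markers lie lower in the 3 CD206pos libraries, while the summed macrophage list lies higher.

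Csf1r, the receptor for CSF1 and IL-34 on which most tissue macrophages depend, was by far the most abundant receptor transcript in both populations, and cells had been gated on a reporter of its own promoter (ENSMUSG00000024621.15, chromosome 18, 61105572 to 61132149, plus strand). It was at 1619, 2401 and 2833 CPM in the CD206pos libraries of litters 1, 2 and 3, against 1532, 1781 and 1489 CPM in the CD206neg libraries. The level in CD206pos was 1.06, 1.35 and 1.90 times that in CD206neg within the same litter, and the groups overlapped because the CD206pos library of litter 1 stood below CD206neg of litter 2. The means were 2284 ± 615 CPM in CD206pos and 1600.4 ± 157 CPM in CD206neg, a log2 fold change of 0.51 ± 0.20 that did not pass (edgeR adjusted p = 0.226). Without CD206pos replicate 1 it passed, at a log2 fold change of 0.71 (adjusted p = 0.0413), and without litter 3 it was 0.25 (adjusted p = 0.752). Of its 4885 exon bases 17.8% lie in exons of the overlapping gene Hmgxb3, where the counting program by default leaves reads unassigned, so such reads are missing from its level in both groups. Whether the reporter transgene adds reads to Csf1r was not tested, which bears on its level and on each ratio to the other receptors.

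Compared per kilobase of exon, Csf1r was at 468 ± 126 RPKM, which is CPM divided by exon length in kilobases, in CD206pos and 328 ± 32.2 in CD206neg. It ranked at place 80 in CD206pos and 102 in CD206neg among genes with a read. In the libraries of CD206pos it made up 81.7% to 83.8% of the summed per-kilobase level of the 9 receptors, and in those of CD206neg 65.2% to 73.6%. In CD206pos the order was Csf1r, Csf2ra, Csf3r, Csf2rb, Il3ra, Epor, Csf2rb2, Flt3 and Kit. In CD206neg it was Csf1r, Csf2ra, Csf3r, Csf2rb, Kit, Il3ra, Flt3, Csf2rb2 and Epor. The first 4 places were thus the same in both populations. Neighbours whose libraries overlapped in range were Csf2ra and Csf3r, Csf3r and Csf2rb, Il3ra and Epor, and Flt3 and Kit in CD206pos. In CD206neg they were Csf2ra and Csf3r, Kit and Il3ra, and Il3ra and Flt3. Kit at 9.28 ± 1.87 RPKM and Flt3 at 5.81 ± 2.21 RPKM in CD206neg were thus of the order of the interleukin 3 alpha chain, and Csf1r was 35.3 times Kit there.

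**Figure D3:**
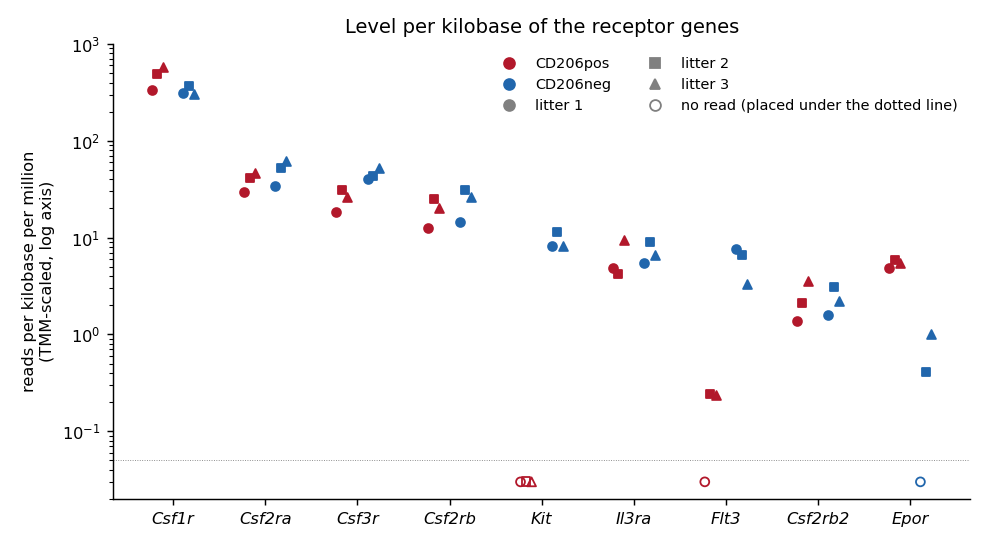
Level of each receptor gene per kilobase of exon in each library (RPKM scaled by TMM, log axis), ordered by the CD206neg mean, with CD206pos (red) left of CD206neg (blue); symbols are litters, and open symbols under the dotted line have no read. Csf1r lies above 300 RPKM in every library, whereas Kit and Flt3 lie lower and Epor higher in CD206pos.

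Epor, the erythropoietin receptor of red cell precursors that macrophages also express, ran the other way from Kit and Flt3 (ENSMUSG00000006235.6, chromosome 9, 21958897 to 21963506, minus strand). It had 157, 205 and 186 reads in the CD206pos libraries of litters 1, 2 and 3, against 0, 14 and 36 reads in the CD206neg libraries. In CPM these are 9.60, 11.7 and 10.8 in CD206pos and 0, 0.811 and 2.03 in CD206neg. All CD206pos libraries lay above all CD206neg libraries, a pattern shown with that direction by 12.8% of the genes tested. The means were 10.7 ± 1.07 CPM in CD206pos and 0.947 ± 1.02 CPM in CD206neg, 11.3-fold higher in CD206pos. The log2 fold change of 3.49 ± 1.07 (SE) did not pass (edgeR unadjusted p = 0.0103, adjusted p = 0.122). It passed with DESeq2 (adjusted p = 0.00575) and with a stricter filter that tests fewer genes (adjusted p = 0.0467), and it was positive under all 20 alternatives. Its size depended on the CD206neg libraries: the log2 fold change was 4.71 without CD206neg replicate 3 and 2.91 without CD206neg replicate 1, and it was 4.35 with limma-voom and 4.18 when litter entered as a block. Reads this few vary: among 1347 genes averaging 10 to 20 reads in CD206neg, 41.7% had 0 reads in at least 1 library.

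Red cell markers were low in both populations. The 10 erythroid markers, embryonic and adult globins among them, summed to 2.38 to 4.69 CPM in CD206pos and 5.86 to 9.75 CPM in CD206neg. Among them 4 were tested, 1 fell and 0 rose, and 2 of the 4 had a positive log2 fold change. Slc4a1, which encodes a membrane protein of red cells, had 0 reads in every library. Gata1, which drives red cell genes, had 0 reads in CD206pos, and the erythroid factor gene Klf1 had 0, 0 and 4 reads in CD206pos, against 37, 28 and 27 reads in CD206neg. Of 10 macrophage markers 6 rose and 0 fell, and 9 had a positive log2 fold change. At an unadjusted p under 0.05 stood 9 positive markers and 1 negative one. DESeq2 called 8 higher and 1 lower, and limma-voom 7 higher and 0 lower. The summed level of the macrophage markers lay higher in the same libraries as Epor, and their part in the Epor values was not tested.

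Csf3r, the G-CSF receptor of neutrophils and their precursors, lay lower in every CD206pos library than in any CD206neg library but did not pass the test (ENSMUSG00000028859.14, chromosome 4, 126024550 to 126044440, plus strand). It was at 66.9, 112 and 95.6 CPM in CD206pos and at 146, 156 and 190 CPM in CD206neg, lower in CD206pos in each litter. Groups apart with CD206pos below were seen for 11.8% of the genes tested. With means of 91.4 ± 22.6 CPM in CD206pos and 164 ± 23.3 CPM in CD206neg, the log2 fold change was -0.84 ± 0.21 (edgeR adjusted p = 0.0646). It passed when litter entered as a block (adjusted p = 0.0365), under DESeq2 and limma-voom (adjusted p = 0.00616 and 0.0421) and under the looser and the stricter filter (adjusted p = 0.0473 and 0.0318). It did not pass when any one library or litter was left out (adjusted p between 0.0892 and 0.281). Unlike Kit, it kept 1095 to 1949 reads in the CD206pos libraries. Of the 50-base words of Csf3r 10.7% occurred in transcripts of other genes, and the effect on its level was not tested. The granulocyte precursor markers given above lay lower in the same libraries, and their part in the Csf3r values was not tested.

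The GM-CSF receptor chains were read in every library of both populations. Csf2ra (ENSMUSG00000059326.6, chromosome 19, 61224402 to 61228418, minus strand) measured 54.5, 76.7 and 86.1 CPM in CD206pos and 63.6, 97.5 and 115 CPM in CD206neg. Csf2rb (ENSMUSG00000071713.4, chromosome 15, 78325990 to 78351000, plus strand) measured 59.6, 118 and 96.2 CPM in CD206pos and 69.3, 148 and 126 CPM in CD206neg. Both were lower in CD206pos in each of 3 litters, with log2 fold changes of -0.34 ± 0.26 for Csf2ra and -0.32 ± 0.32 for Csf2rb (edgeR adjusted p = 0.586 and 0.706). Neither passed under any of 20 alternatives.

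The order of the litters was the same in both populations for each chain. Csf2ra was lowest in litter 1 and highest in litter 3 in both groups, and Csf2rb was lowest in litter 1 and highest in litter 2 in both groups. The per-kilobase ratio of Csf2rb to Csf2ra in litter 1 was 0.425 in CD206pos and 0.423 in CD206neg. In litter 2 it was 0.599 in CD206pos and 0.589 in CD206neg, and in litter 3 it was 0.433 in CD206pos and 0.427 in CD206neg. The mean log2 ratio differed by 0.018 between the populations, at -1.06 ± 0.28 in CD206pos and -1.08 ± 0.27 in CD206neg (exact permutation test over 6 libraries, two-sided, p = 0.60, where 0.10 is the smallest p that 3 against 3 allows). The order of litters was seen after the values were known and was not tested.

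**Figure D4:**
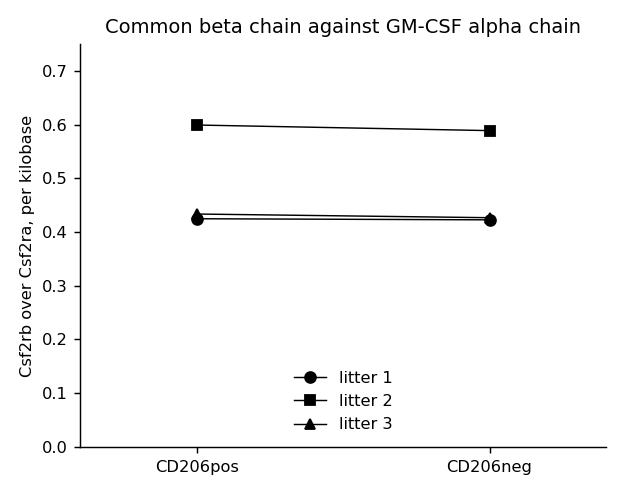
Ratio of Csf2rb to Csf2ra, each per kilobase of exon, on a linear axis from 0, for the CD206pos (left) and CD206neg (right) library of each litter, joined by a line. The lines are nearly level at 0.42 to 0.60, and litter 2 stands above the other litters in both populations.

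Il3ra, the interleukin 3 alpha chain (ENSMUSG00000068758.7, chromosome 14, 14346495 to 14355490, plus strand), measured 6.85, 5.84 and 13.2 CPM in CD206pos and 7.68, 12.5 and 9.13 CPM in CD206neg. Csf2rb2, the interleukin 3 beta chain (ENSMUSG00000071714.5, chromosome 15, 78282517 to 78305603, minus strand), was at 6.42, 9.74 and 16.6 CPM in CD206pos and at 7.30, 14.1 and 10.1 CPM in CD206neg. For both genes litter 3 was higher in CD206pos and the other litters were higher in CD206neg. The log2 fold changes were -0.18 ± 0.44 for Il3ra and 0.06 ± 0.45 for Csf2rb2 (edgeR adjusted p = 0.906 and 0.975), and both took either sign among the alternatives. Per kilobase Csf2rb was 5.61 to 11.8 times Csf2rb2 in CD206pos and 9.19 to 12.1 times in CD206neg.

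The 2 beta chain genes are near copies, which limits how their reads can be told apart. Their coding sequences, 2691 bases in Csf2rb and 2637 in Csf2rb2, were identical at 95.2% of aligned positions. Of the 50-base words in their transcripts, 12.3% for Csf2rb and 18.4% for Csf2rb2 occurred in the other gene as well. Reads that fit both places are left out by the counting program's default, so both levels may be underestimates and their ratio is uncertain. The longest stretch without a difference is printed to show how much of a read can be shared. It has 242 bases, from position 2083 to 2324 of either coding sequence counted from the A of the start codon, and lies at chr15:78348577-78348818 (plus strand) for Csf2rb and chr15:78284630-78284871 (minus strand) for Csf2rb2.
Csf2rb and Csf2rb2 shared run: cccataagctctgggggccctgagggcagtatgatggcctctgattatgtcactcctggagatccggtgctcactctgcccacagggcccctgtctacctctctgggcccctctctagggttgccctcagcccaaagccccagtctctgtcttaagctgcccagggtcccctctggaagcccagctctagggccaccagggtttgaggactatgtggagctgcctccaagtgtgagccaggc

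**Figure D5:**
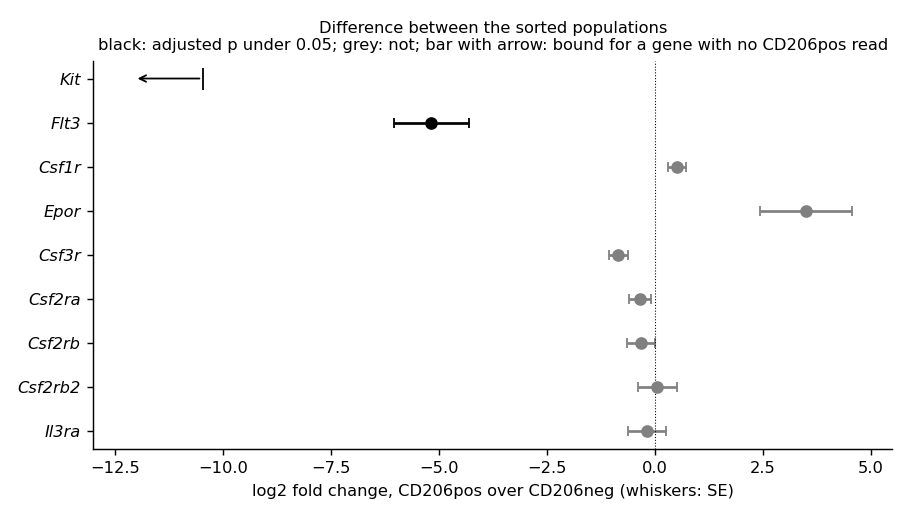
Log2 fold change of each receptor gene, CD206pos over CD206neg, with whiskers of 1 SE, in black where the edgeR adjusted p is under 0.05 and in grey otherwise; for Kit, which has no CD206pos read, the bar with an arrow is the bound of at least 1409-fold lower. Kit and Flt3 are in black on the negative side, Epor has the largest positive value and the widest whiskers, and the alpha and beta chains lie near 0.

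Ligands of these receptors were at low levels in the sorted cells themselves. Of 10 ligand genes 3 passed the filter, and edgeR, DESeq2 and limma-voom called 0 of them, with 0 at an unadjusted p under 0.05. Kitl, encoding stem cell factor, was at 3.85, 4.70 and 12.6 CPM in CD206pos and at 2.72, 1.68 and 4.40 CPM in CD206neg (adjusted p = 0.378). Csf1, encoding the main ligand of Csf1r, was at 6.79, 1.78 and 13.5 CPM in CD206pos and at 4.47, 2.95 and 7.27 CPM in CD206neg (adjusted p = 0.770). Flt3l, encoding FLT3 ligand, was at 1.66 ± 0.62 CPM in CD206pos and 0.67 ± 0.67 CPM in CD206neg (adjusted p = 0.667). Il34, the other ligand of Csf1r, had 7 reads in CD206neg of litter 3 and 0 in the other libraries. Csf3, encoding G-CSF, had 32 reads in CD206pos of litter 3, 4 in CD206neg of litter 2 and 0 in the others. Epo, Csf2, Il3, Il5 and Thpo, encoding erythropoietin, GM-CSF, interleukin 3, interleukin 5 and thrombopoietin, had 0 reads in every library, so none was detectable at this depth.

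Related receptors outside the 9 were examined in 2 lists. Of 15 other cytokine receptors 11 were tested, 2 rose, 2 fell and 7 did not pass (median log2 fold change 0.57). Il7r, the interleukin 7 receptor, had 0 reads in CD206pos and 3.17 ± 1.56 CPM in CD206neg, at least 54.1-fold lower (edgeR adjusted p = 0.0279, and 0.0846 when litter entered as a block). Il4ra rose 2.21-fold to 685 ± 91.1 CPM in CD206pos, against 311 ± 62.7 CPM in CD206neg, and Il10rb, a chain of the interleukin 10 receptor, rose 2.07-fold to 141 ± 20.4 CPM, against 68.3 ± 16.9 CPM in CD206neg (adjusted p = 0.0100 and 0.0333). Il5ra, the alpha chain that shares Csf2rb for interleukin 5, had 0 reads in CD206pos and 17, 3 and 0 reads in CD206neg. Of 5 related tyrosine kinase receptors 3 were tested and Flt1, a VEGF receptor, fell 9.23-fold, at 3.64 ± 2.33 CPM in CD206pos and 33.6 ± 8.12 CPM in CD206neg (adjusted p = 0.00764). The 7 endothelial markers summed to 31.2 to 66.8 CPM in CD206pos and 99.7 to 155 CPM in CD206neg. All 7 were tested and edgeR called 0 of them, while DESeq2 called 2 lower and limma-voom 1 lower. The part of endothelial cells in the Flt1 value was not tested. The log2 fold change of Flt1 was -3.20, and -3.88 without CD206pos replicate 2, and the call was lost when any one litter was left out (adjusted p between 0.0661 and 0.0771). The Il4ra call was lost without CD206pos replicate 2 or CD206neg replicate 1 (adjusted p between 0.0515 and 0.0748), and the Il10rb and Il7r calls when any one library was left out (adjusted p between 0.0603 and 0.131 for Il10rb and between 0.0503 and 0.116 for Il7r).

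Signalling genes downstream of the receptors were examined in lists by role. Of 11 JAK and STAT genes edgeR, DESeq2 and limma-voom called 0, with 1 at an unadjusted p under 0.05 (median 0.07). Of 22 adaptors and proximal kinases 2 rose, 1 fell and 19 did not pass (median 0.0056). Gab1 and Gab3, docking proteins that recruit PI3 kinase and SHP2, rose 3.82-fold and 3.65-fold, at 44.9 ± 9.16 and 72.0 ± 26.6 CPM in CD206pos and 11.7 ± 2.93 and 19.7 ± 7.90 CPM in CD206neg (adjusted p = 0.00727 and 0.0305). Plcg2, a phospholipase that produces second messengers, fell to 298 ± 60.3 CPM in CD206pos, against 580 ± 49.4 CPM in CD206neg (adjusted p = 0.0153). The Gab1 call held without any single library but was lost when any one litter was left out (adjusted p between 0.0636 and 0.117). The Gab3 call was lost without CD206pos replicate 2 or 3 or CD206neg replicate 1 or 2 (adjusted p between 0.0905 and 0.140). The Plcg2 call was lost without CD206pos replicate 2 or CD206neg replicate 1 or 2 (adjusted p between 0.0700 and 0.0956).

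Of 15 tested negative regulators 1 rose, 1 fell and 13 did not pass (median 0.14). Dok2, an adaptor that dampens RAS signalling, rose 1.68-fold (adjusted p = 0.0440), a call lost when litter entered as a block (adjusted p = 0.0530), with library totals or RLE scaling, without globin, mitochondrial and ribosomal protein genes, and without CD206pos replicate 2 or 3 or CD206neg replicate 2 or 3 (adjusted p between 0.138 and 0.190). Sla2, an adaptor that lowers receptor signalling in lymphocytes, was at 0.038 ± 0.033 CPM in CD206pos and 5.05 ± 1.17 CPM in CD206neg (adjusted p = 0.00875), a call lost without CD206neg replicate 1 or 2 (adjusted p between 0.0524 and 0.0570). Of 11 genes linked to STAT5 in survival and growth, 1 rose and 2 fell, all D-type cyclins, which drive entry into the cell cycle (median -0.36). Ccnd1 was at 104 ± 19.8 CPM in CD206pos and 39.3 ± 8.45 CPM in CD206neg, and Ccnd2 was at 104 ± 30.5 CPM in CD206pos and 495 ± 79.5 CPM in CD206neg (adjusted p = 0.0102 and 0.00202). Ccnd3 fell to 238 ± 41.3 CPM, against 396 ± 49.4 CPM in CD206neg (adjusted p = 0.0464). The Ccnd1 call was lost without CD206pos replicate 2 or CD206neg replicate 2 or 3 (adjusted p between 0.0505 and 0.0680), and the Ccnd3 call when any library was left out other than CD206pos replicate 1 (adjusted p between 0.0737 and 0.166).

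Among 17 transcription factor genes linked to these receptors 16 were tested, 0 rose, 4 fell and 12 did not pass (median -0.21), with 1 positive and 6 negative at an unadjusted p under 0.05. DESeq2 called 0 higher and 7 lower, limma-voom 0 higher and 2 lower, and edgeR with litter as a block 0 higher and 3 lower. Those that fell were Gfi1b, Gata1, Gata2 and Myb, factors of erythroid, megakaryocytic and progenitor cells; Gata1, Gata2 and Myb also stand in the marker lists above. Gfi1b and Gata1 had 0 reads in CD206pos and 23.3 ± 5.36 and 4.54 ± 2.53 CPM in CD206neg, at least 397-fold and 77.4-fold lower (adjusted p = 0.00108 and 0.0201, the second being 0.0557 with the litter as a block). Gata2 was at 0.464 ± 0.751 CPM in CD206pos and 24.8 ± 8.46 CPM in CD206neg, and Myb was at 2.19 ± 1.64 CPM in CD206pos and 21.7 ± 5.62 CPM in CD206neg (adjusted p = 0.0218 and 0.0168). Spi1, which encodes PU.1, was at 767 ± 31.7 CPM in CD206pos and 692 ± 48.3 CPM in CD206neg and did not pass (adjusted p = 0.619). The Gata1 call was lost without CD206pos replicate 2 or CD206neg replicate 1 or 2 (adjusted p between 0.0603 and 0.120), the Gata2 call when any library was left out other than CD206pos replicate 3 (between 0.0502 and 0.113), and the Myb call without CD206pos replicate 3 or CD206neg replicate 1 or 2 (between 0.0646 and 0.0820). With limma-voom the Gata1 and Gata2 calls were lost as well. The log2 fold change of Gata2 was -5.71, and -9.42 without CD206pos replicate 3, and that of Myb was -3.31, and -4.06 without CD206pos replicate 1.

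Genes most like Kit, Flt3 and Csf1r across the 6 libraries were found by Pearson's r of log2 CPM over 11378 named genes, as a description without a test. For Kit they included Ifi205 and Btla (r = 0.9999 and 0.9994), both with 0 reads in CD206pos. For Flt3 they were Esyt1, Hk1 and Adgrg1 (r = 0.9916, 0.9908 and 0.9900). For Csf1r they were Slamf9, Anapc2 and Daglb (r = 0.9932, 0.9915 and 0.9840). Of the genes compared 193 had r over 0.95 with Kit, 72 with Flt3 and 48 with Csf1r.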

How the data were processed

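RNA was sequenced from 6 libraries of sorted AGM cells, after collagenase digestion (45 min, 37 °C). The deposited files hold raw read counts per gene, which the authors made with featureCounts 1.5.2 over GENCODE vM14 exons, per the file headers, with no option for strand, pairs or multi-mapping reads. STAR 2.3 and the builds mm10 and GRCm38.p5 are named in the submitters' processing notes. Read length, library strandedness and what was merged are not stated in the labels. Other values were computed here from the counts. Symbols came from GENCODE M21 (51633 of 51912 identifiers matched; the rest held 0.010% to 0.014% of the reads), and coordinates are those of the files (GRCm38, 1-based). Exon length in the files gave RPKM.

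The test was edgeR 4.0.16 under R 4.3.3 (filterByExpr, TMM, robust quasi-likelihood F test, no block). An SE is the log2 fold change divided by the square root of F, and folds are ratios of mean CPM. The number in each title was read as the litter. Deviations from the group means correlated at 0.089, 0.039 and 0.180 between same-numbered libraries, and the block was run as an alternative, as were DESeq2 1.42.0, limma-voom (limma 3.58.1), other scalings and filters, and leaving out libraries or litters. No library copied another (chi-square per degree of freedom 36.9 to 90.4). The fit was run once on simulated data, with changes placed only in genes above a minimum level, so it does not cover the lowest genes. It recovered 69 of 100 genes with a log2 change of 1.5 and 97 of 100 with a change of 3. False calls numbered 10 among 12101 genes tested. The files record no molecular identifiers, and reads are not independent molecules, so limits cover counting error only, and p-values measure the spread between pooled litters.

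The members, gene lists and tests were chosen with earlier results of these data known. Named genes are the 9 members, all ligands, for each list up to 4 called genes in either direction by smallest p, and the 3 genes most correlated with Kit, Flt3 and Csf1r over log2 CPM with a prior count of 2; Il5ra, Spi1 and the marker genes named were added for their roles. Some genes that the rule chose are not reported here.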

Additional observations from a re-analysis of the deposited data

How the results depend on the processing

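Under all 20 alternatives Kit stayed lower and called, and Flt3 was lower in each. Of 17 called genes outside the members that the naming rule chose, none changed sign under the alternatives in which it was tested; Il7r, Sla2 and Gata1 did not enter the stricter filter. DESeq2 called 756 genes higher and 672 lower, against 376 and 241 with edgeR; it ran on all listed genes with its own filter, which left 14133, so tool and filter both changed. Members called higher numbered 1 with DESeq2 and 1 with the stricter filter (Epor in both), against 0. Leaving out a library or litter gave 2 to 355 genes called higher, 1 to 206 called lower, 0 to 1 members higher and 1 to 2 members lower; the fewest calls of all genes (2 and 1) came without litter 2. Of those 17 genes 5 kept their call without each single library, and 7, 0 and 5 kept it without litters 1, 2 and 3. Fewer samples lower the power of the test, and this was not separated from the libraries themselves. With library totals alone 49.0% of calls were higher, against 60.9%. With the litter as a replicate block 436 genes were higher and 267 lower; besides the calls given in the text it changed none of the named ones, and the within-litter difference in the log2 Csf2rb to Csf2ra ratio was 0.018 (exact sign-flip permutation test, two-sided, p = 0.25, the smallest that 3 pairs allow). Uncalled genes took the opposite sign under some alternatives: Csf2rb2 had a log2 fold change of -0.036 with library totals, -0.0020 with the replicate block and -0.44 (without litter 3) to 0.37 (without litter 2) when libraries or litters were left out, Il3ra -0.71 to 0.22 over the same leave-outs, and Csf1 -0.24 without CD206pos replicate 3 to 1.04 without CD206pos replicate 2. Leaving out 1 library moved that ratio difference between -0.14 and 0.18; the cause was not tested. Genes with a mean under 20 reads, such as Epor in CD206neg and Flt3 in CD206pos, are limited by depth.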
